A study of Mus musculus with 8 samples.

Results

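The regions described here are strong ATAC-seq peaks whose level differed little between 8 libraries of mouse hematopoietic stem cells (HSCs). A peak's level is given in CPM, the count of the peak divided by all counts of its library and multiplied by 1000000. A peak was strong when its mean level over the 8 libraries was at least 20 CPM, and stable when the highest library was no more than 1.5 times the lowest. The deposited counts cover 126871 peaks. Of these, 13490 were strong and 9592 both strong and stable. The stable peaks made up 71.1% of strong peaks and 7.56% of all peaks. The stable peaks were chosen by the counts of all 8 libraries, so their levels and their old to young differences are a description and carry no test. Width, spacing and position on the chromosomes were not used by the rule.

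ATAC-seq inserts sequencing adapters into open chromatin with a transposase, so that counts over a region follow its accessibility. Libraries came from bone marrow HSCs of C57BL/6 mice, sorted as lineage-negative, Sca-1 positive, Kit positive (LSK) cells with the surface phenotype CD150+ CD48-. There were 4 libraries labelled old and 4 labelled young, and the design compares accessibility between them. Genotype, treatment, sex, ages in months and whether a library pooled several mice are not stated in the labels, and nothing says that replicates came from separate mice. Tests over these libraries then measure only how far the libraries vary, and that variation may be technical.

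In most cell types open chromatin includes promoters, which lie at the starts of genes, and enhancers, which are often farther away. Promoters of genes needed in every cell and sites of the insulator protein CTCF are known to be open in many cell types, while enhancers tend to be open in few. Stem cells of the marrow are known to change in number and lineage output with age, and enhancers are among the regions studied in that change. Which genes, promoters or motifs lie at the positions below was not analysed here, since no annotation or sequence of the build mm9 was used. For the same reason the sorted cell type was not checked against marker genes.

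Totals ran from 4200905 to 5129684 counts per library, so that 1 count was 0.195 to 0.238 CPM. Old replicate 4 differed most from its group. Its mean correlation of log2 CPM with its own group was 0.919, where the other old libraries had 0.941 to 0.944, and it lay at -13.7 on the first principal component, between old replicates 1 to 3 (-111 to -96.6) and the young libraries (52.9 to 99.0). Without it the rule gave 9884 stable peaks. All 28 pairs of libraries differed by more than counting noise, the smallest chi-square per peak being 1.19.

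The 8 highest stable peaks had mean levels from 196 to 244 CPM. The peak at chr16:42874951-42876639 (mm9) was the highest, with 275, 269, 257 and 246 CPM in old replicates 1 to 4 and 223, 227, 250 and 205 CPM in young replicates 1 to 4. Young replicate 3 lay above old replicate 4 there, so the groups overlapped. Its ratio of highest to lowest library was 1.34, from counts between 1005 and 1366. The peak at chr12:113182056-113185224 was at 256, 248, 239 and 251 CPM in the old libraries and at 209, 236, 216 and 258 CPM in the young ones. Young replicate 4 was the highest of all 8 libraries at this peak, and young replicate 1 the lowest. It was also the second widest stable peak, at 3169 bases.

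At chr16:38088128-38090118 the old libraries had 221, 213, 202 and 209 CPM and the young libraries 214, 212, 226 and 208 CPM. Its old mean was 211 ± 7.67 CPM and its young mean 215 ± 7.64 CPM (SD, n = 4 each), so the difference was smaller than the spread in either group. At chr17:57170467-57171835 the levels were 224, 217, 210 and 205 CPM in old libraries, with 217, 206, 213 and 201 CPM in young ones. Both peaks had a ratio near 1.1, and in both the old and young values were interleaved. The peak at chr5:109985628-109988093 had a mean of 206 ± 13.8 CPM among old libraries, against 206 ± 4.38 CPM among young ones. It had the fewest neighbours of these 8 peaks, with 14 other peaks centred within 250000 bases.

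The peak at chr7:26052268-26053684 had 217, 217, 227 and 194 CPM in old libraries, with 193, 177, 192 and 174 CPM in young ones. All 4 old libraries lay above all 4 young ones there, though old replicate 4 did so by under 1 CPM. At chr11:87256180-87257378 the order of the means was the opposite, with a mean of 190 ± 4.56 CPM among old libraries, against 203 ± 8.64 CPM among young ones, and the groups overlapped. At chr17:26056115-26057819 the old libraries had 203 ± 8.20 CPM and the young ones 189 ± 19.4 CPM. The young values at this last peak were 202 and 208 CPM in replicates 1 and 3 against 178 and 167 CPM in replicates 2 and 4.

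**Figure D1:**
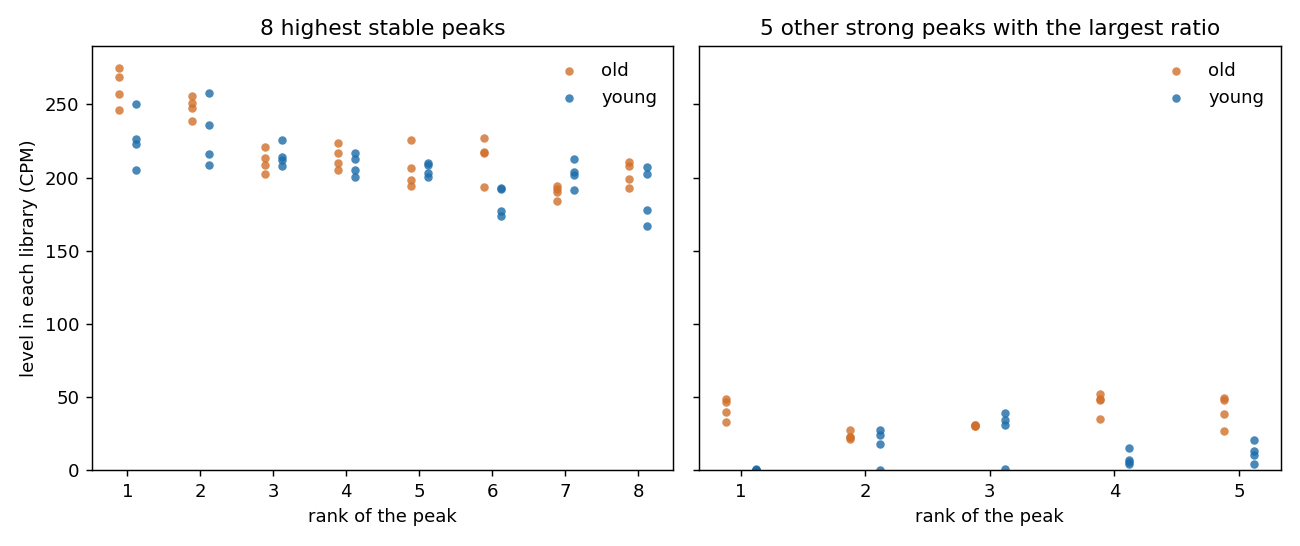
Level (CPM) in each library at the 8 highest stable peaks (left) and at the 5 other strong peaks with the largest ratio of highest to lowest library (right). Each point is 1 library, old or young, and peaks are numbered by rank. Stable peaks lie between 167 and 275 CPM with mixed or close groups, while each of the others falls below 5 CPM in at least 1 library.

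The 5 stable peaks with the smallest ratio differed by about 5% between libraries. The peak at chr13:47024378-47026466 had 71.9, 69.2, 71.4 and 70.0 CPM in old libraries, with 72.3, 70.3, 70.5 and 69.8 CPM in young ones, a ratio of 1.04. Its coefficient of variation (CV, the SD as a percent of the mean) was 1.54%, below the 5.50% that counting noise alone gives at its depth. Ratios at chr16:11253166-11255017, chr8:73300086-73301515, chr19:46130335-46132073 and chr16:58727741-58728826 were 1.05, 1.05, 1.05 and 1.06. Their mean levels were 85.9, 85.3, 76.7 and 71.9 CPM. Each of these 5 had a CV below its counting noise, so the order among them is within counting noise.

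Among all stable peaks the median CV was 8.97% (quartiles 6.97% and 11.0%), and the median counting noise was 7.39%. A CV at or below counting noise was found at 2565 stable peaks, or 26.7%. The other strong peaks had a median CV of 18.5% with a counting noise of 8.90%, and 0 of them were at or below it. Their lowest CV was 10.8% and their highest counting noise 10.4%. The limits on ratio and level keep these values apart, so nothing is read from the 0 or from the difference in median CV. The median ratio was 1.3 in stable and 1.71 in other strong peaks, a difference that the rule fixes. A ratio of at most 1.2 was reached by 1624 stable peaks, and 941 of the other strong peaks (24.1%) had a ratio above 2.

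Values on either side of the ratio limit were close. Just inside it lay chr4:49609693-49611266, chr10:7933416-7934429 and chr10:26518918-26520044, each with a ratio of 1.5 and mean levels of 49.7, 41.2 and 32.9 CPM. Just outside lay chr1:93436206-93437747, chr6:129283588-129284386 and chr10:59370498-59371276, also at 1.5 after rounding, with mean levels of 40.3, 25.05 and 35.4 CPM. At the first of the inside peaks the old libraries had 53.9 to 58.6 CPM and the young ones 39.04 to 47.7 CPM, so a stable peak can still separate the groups. Around the level limit, 3 stable peaks at chr7:56717316-56718422, chr4:63205273-63206561 and chr10:76984796-76985755 had means of 20.003, 20.004 and 20.008 CPM. Peaks of like ratio just below it, at chr17:33961159-33961949, chr13:111757201-111758692 and chr7:17476726-17477744, had 19.999, 19.999 and 19.996 CPM.

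The share of strong peaks that were stable increased with their level. It was 47.9% from 20 to 25 CPM (1418 of 2962), 60.8% from 25 to 30, 71.2% from 30 to 40 and 85.0% from 40 to 60 CPM. From 60 to 100 CPM it was 93.6%, and at 100 CPM or more 96.6% (367 of 380). Counting noise fell over the same bands, from a median of 9.74% to 4.28% among stable peaks. The part of counting noise in this increase was not tested. Median levels were 39.1 CPM in stable and 26.9 CPM in other strong peaks, and comparisons of width and spacing are therefore also given within bands of level.

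**Figure D2:**
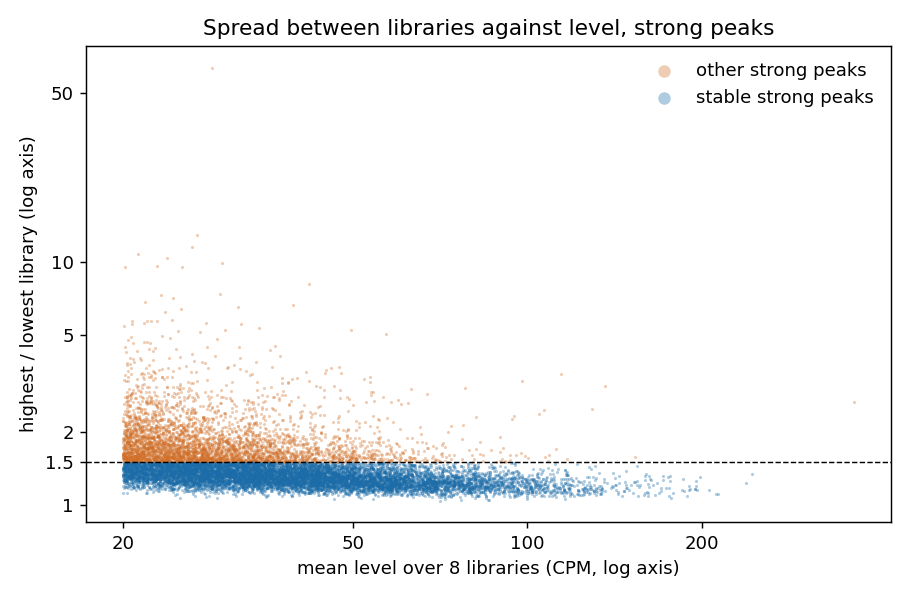
Ratio of the highest to the lowest library against mean level (CPM) for strong peaks, both on log axes. Each point is 1 peak, the dashed line is the limit of 1.5, and 2 peaks with a library at 0 counts have no ratio and are not drawn. The ratios of stable peaks narrow towards 1 as the level rises.

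Some very strong peaks were not stable. At 100 CPM or more only 13 strong peaks were outside the limit, against 367 inside. The highest peak of the table, at chr5:60433880-60434405, was 1 of them, at 286, 315, 247 and 214 CPM in old libraries and 569, 494, 521 and 288 CPM in young ones. It was 526 bases wide and held 697 CPM per 1000 bases, where the highest stable peak in that measure held 189. The peak at chr7:137977835-137978249 was 415 bases wide, at 115 to 224 CPM in old libraries and 72.3 to 116 CPM in young ones. The peak at chr7:51559770-51561270 had 176 ± 14.9 CPM in old against 131 ± 11.5 CPM in young libraries (SD, n = 4 each), and its ratio of 1.59 lay only a little above the limit.

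Stable peaks were wide. Their median width was 1220 bases (quartiles 998 and 1479), against 1031 bases (824 and 1293) in other strong peaks and 372 bases in peaks below 20 CPM. Within each of 6 bands of level the stable median was the larger, from 1018 against 951 bases at 20 to 25 CPM to 1431 against 1311 bases at 60 to 100 CPM. The difference narrowed to 1580 against 1524 bases at 100 CPM or more, where only 13 other peaks remained. Width is a property of the shared peak set and has no replicate error, and peaks are not replicates, so these differences carry no test.

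Read the other way, the stable share increased with width. Of strong peaks 206 to 885 bases wide 53.1% were stable, and of those 1508 bases or wider 81.9%. Median levels of these classes were 26.7 and 48.9 CPM. From 20 to 25 CPM, the stable share was 41.4% in narrow, 48.9% in middle and 53.3% in wide peaks, 3 classes of nearly equal size. From 40 to 60 CPM it was 81.5%, 87.0% and 86.6%, so there the middle and wide classes hardly differed. The level of stable peaks per 1000 bases was lower than that of other strong peaks in 5 of the 6 bands, for example 29.8 against 32.0 CPM per 1000 bases from 30 to 40 CPM.

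The widest stable peak, at chr5:43623533-43626783, spanned 3251 bases. Its levels were 140, 145, 142 and 123 CPM in old libraries, with 119, 115, 118 and 111 CPM in young ones, so that all old libraries lay above all young ones. At chr15:85499361-85502516 a width of 3156 bases went with 70.7 CPM, and at chr11:70466744-70469745 a width of 3002 bases with 60.005 CPM. The peak at chr3:58218241-58221323 was 3083 bases wide and had a mean of 96.8 ± 6.63 CPM among old libraries, against 96.1 ± 3.46 CPM among young ones (SD, n = 4 each). Old and young values overlapped at the last 3 of these.

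The narrowest stable peak, at chr6:52167452-52167727, was 276 bases wide. It had 23.6, 21.2, 21.7 and 17.5 CPM in old libraries, with 19.5, 24.4, 19.9 and 18.6 CPM in young ones, from 84 to 122 counts. The next narrowest lay at chr10:127531673-127531993 (321 bases, 27.9 CPM), chr13:51941788-51942113 (326 bases, 30.1 CPM), chr13:59872661-59872996 (336 bases, 22.1 CPM) and chr6:31170179-31170533 (355 bases, 22.4 CPM). Levels of these 5 ran from 20.8 to 30.1 CPM, and 4 of them had another peak at most 1180 bases away.

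**Figure D3:**
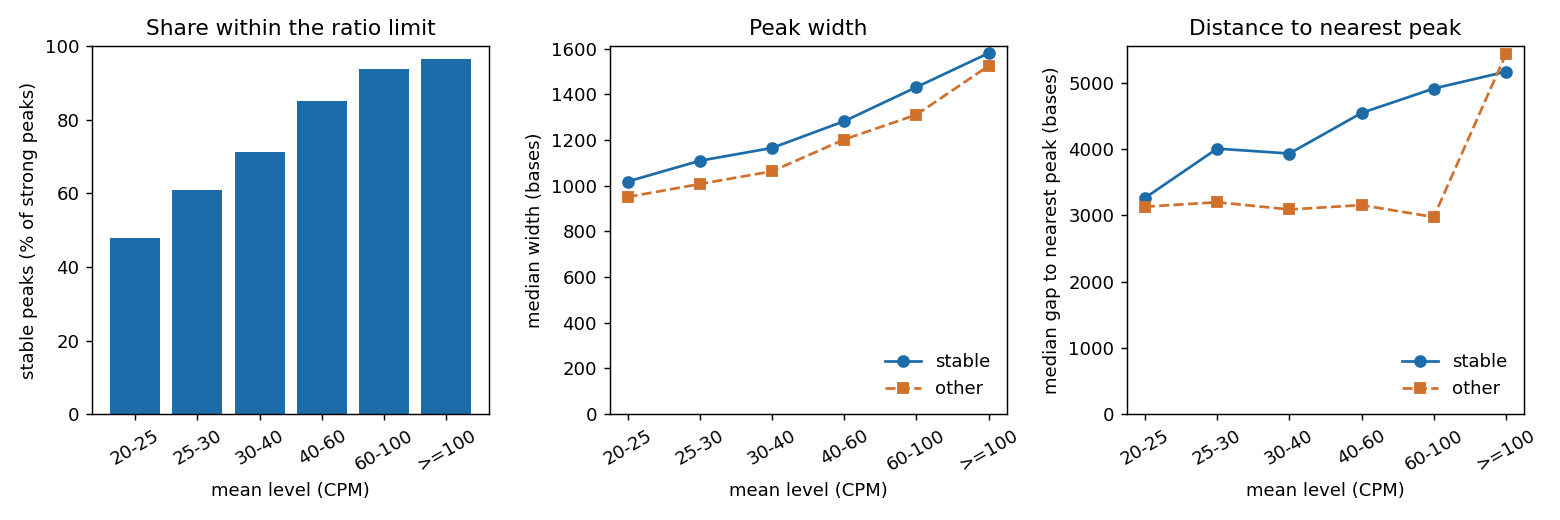
Strong peaks by mean level (CPM). Left, the percent of strong peaks that were stable. Middle and right, the median width and the median gap to the nearest peak (bases) of stable and other strong peaks. The stable share increases from 47.9% to 96.6%, the stable width is the larger in all 6 bands, and the stable gap is the larger in 5.

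The median gap to the nearest peak of any strength was 4322 bases (quartiles 1050 and 7759) for stable, 3140 bases (1001 and 6436) for other strong and 2926 bases for weaker peaks. Within bands of level the stable median was the larger in 5 of 6, for example 4546 against 3155 bases from 40 to 60 CPM. From 20 to 25 CPM the medians were close, at 3264 and 3132 bases, and at 100 CPM or more the order turned to 5169 against 5435 bases. The medians to the nearest strong peak were 26304 and 24183 bases. As for width, there is no replicate error and no test.

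The distribution of gaps was not smooth. The share of peaks with a gap of 1000 to 1500 bases was 4.85% in stable (465 peaks) and 8.47% in other strong peaks (330 peaks). In the stable set the share fell to 3.36% at 3000 to 3500 bases, then increased to 5.32% at 4500 to 5000 bases and fell again to 3.58% at 5500 to 6000 bases. Other strong peaks had the same local maximum at 4500 to 5000 bases (5.05%), and weaker peaks a small one (3.47% after 3.33%). Which weak neighbours enter the table depends on peak calling, whose part in these gaps was not tested.

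The stable share differed between gap classes without a single direction. The stable share was 73.9% with a neighbour closer than 200 bases, 63.4% with the nearest at 1000 to 3000 bases and 76.8% with the nearest at 10000 to 30000 bases. Median levels in these classes were 33.3, 32.6 and 37.0 CPM. With the nearest peak at 30000 bases or more the share was 70.1%. Among peaks of 20 to 30 CPM the shares were 60.4%, 47.5% and 58.8%, and among those of 30 to 60 CPM 80.2%, 72.1% and 82.2%. In both bands the class of 1000 to 3000 bases was the lowest of the 6 gap classes. At 60 CPM or more the lowest was that of 30000 bases or more (88.2%, 45 of 51), beside 88.5% at 1000 to 3000 bases.

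**Figure D4:**
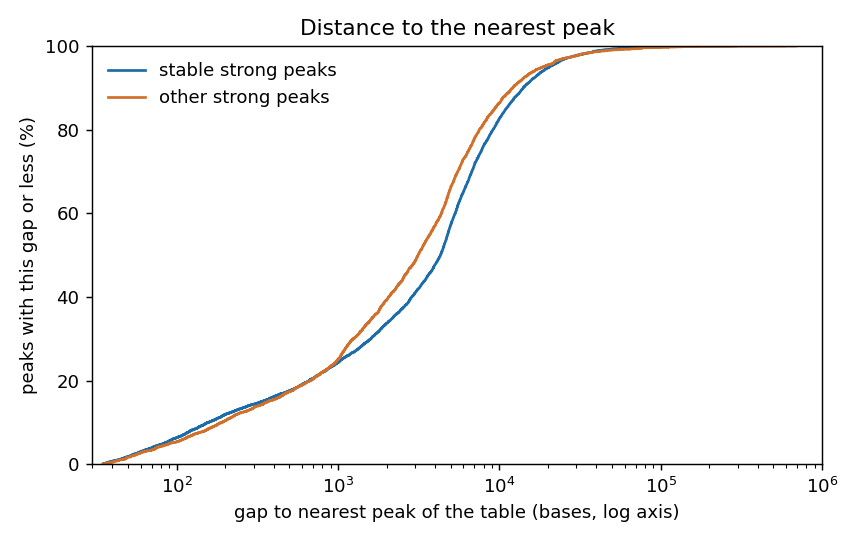
Percent of peaks whose gap to the nearest peak (bases, log axis) is at most the value on the horizontal axis, for stable and other strong peaks. The curves run together up to about 1000 bases and part between 1000 and 10000 bases, where 24.3% and 24.99% become 82.6% and 86.4%.

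The wider surroundings hardly differed. A median of 48 other peaks was centred within 250000 bases of a stable peak and 49 of another strong peak, and the count over strong neighbours alone was 6 and 5. Over 5 classes of this neighbour count the stable share ran only from 69.5% to 72.8%. The largest gaps did not follow the order of the medians. Of 9592 stable peaks 16 had a gap of at least 100000 bases and 2 of at least 250000 bases, and of 3898 other strong peaks 15 and 4 did. The largest gap of a strong peak, 695742 bases, belonged to a peak that was not stable. The most isolated stable peak, at chrX:120216730-120217821, lay 293505 bases from the nearest peak and had 35.9, 33.2, 34.6 and 35.9 CPM in old libraries, with 29.7, 40.9, 32.4 and 33.9 CPM in young ones. Next came chr13:86185771-86186645, with a gap of 267686 bases and 39.8 CPM, and chr7:11080187-11081085, with a gap of 182480 bases and 21.2 CPM.

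Stable peaks were spread over all autosomes and X. They occurred in 1779 of 2537 windows of 1000000 bases that held any peak (70.1%), with a median of 4 in such windows. The median gap between successive stable peaks was 73086 bases. Chromosome 11 held most of them, 851 or 8.87% of stable peaks, though it held 6.67% of all peaks. This came with many strong peaks there (13.3% of its peaks, against 7.33% on X) and with a stable share of 75.8%. No peak on Y was strong among the 9 in the table.

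The stable share of strong peaks was 65.8% on chromosome 13, the lowest, and 76.1% on chromosome 3, the highest autosome. On the X chromosome it was 82.2% (203 of 247), against 70.9% on autosomes (9389 of 13243). X had the highest share of all chromosomes, and setting it against the autosomes was not planned. Strong X peaks had a median of 29.4 CPM. Within bands of level the share was 65.2% on X against 47.5% on autosomes from 20 to 25 CPM, 77.8% against 60.3% from 25 to 30 CPM and 88.5% against 70.8% from 30 to 40 CPM. All 44 strong X peaks of 40 to 60 CPM, all 12 of 60 to 100 CPM and the 1 above were stable, where the autosomal shares were 84.8%, 93.6% and 96.6%. The X share was the larger in each band, and the difference was smallest in the top 2, which hold 13 of the X peaks. With each library left out in turn the X share was 82.0% to 84.7% and the autosomal share 72.3% to 74.9%. With a limit of 1.3 the shares, pooled over level, were 36.8% and 35.6%. The median over all strong peaks was 34.3 CPM, above that of X peaks, and bands of level were not examined at 1.3. Whether peaks of like level differ at the tighter limit was not tested.

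**Figure D5:**
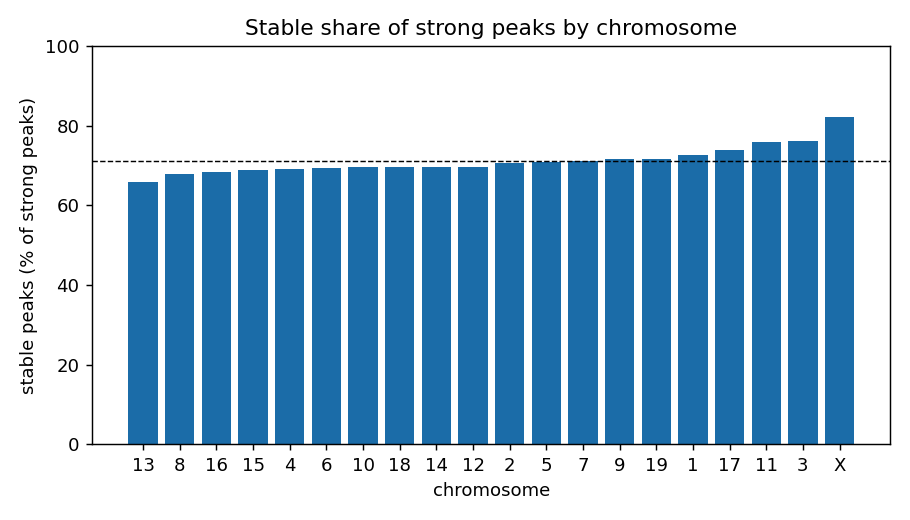
Stable peaks as a percent of the strong peaks of each chromosome, ordered by value. The dashed line is the share over all strong peaks, 71.1%. Chromosome 13 is lowest at 65.8% and X highest at 82.2%.

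Over all adjacent pairs, stable peaks followed one another about as often as their share alone gives. Of 13470 pairs of adjacent strong peaks 51.3% were both stable, where the square of the stable share in those pairs is 50.6%. Both were unstable in 9.05% of pairs, where the square is 8.35%. Pairs under 1000 bases apart departed most, with 50.2% both stable beside a square of 46.9% and 13.2% both unstable beside 9.91% (243 pairs). For pairs 1000 to 10000 bases apart, 45.4% were both stable beside a square of 43.7%. At 250000 bases or more the values were 47.5% and 47.7%. Stable peaks formed 2687 runs without another strong peak in between, with a median of 3 peaks, and 143 runs had 10 or more.

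The longest run, on chromosome 2 from 153474605 to 155891961, held 29 stable peaks with mean levels from 21.6 to 79.6 CPM. Their summed level was 1294, 1327, 1297 and 1309 CPM in old libraries, with 1316, 1291, 1310 and 1242 CPM in young ones. A run of 26 on chromosome 11 from 23155034 to 30098799 summed to 1383, 1391, 1378 and 1321 CPM in old libraries, with 1314, 1315, 1325 and 1277 CPM in young ones, so that old replicate 4 lay within the young range. A run of 25 on chromosome 6 from 70741308 to 72760817 had sums of 1196 to 1276 CPM in old libraries, with 1220 to 1266 CPM in young ones. In all 3 runs the sums overlapped between the groups.

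Some weaker peaks inside these runs differed between old and young libraries. Of the tested weaker peaks, 15.6% on chromosome 2 (4 higher and 11 lower in old of 96), 18.0% on chromosome 11 (5 and 11 of 89) and 14.6% on chromosome 6 (5 and 10 of 103) were called different by edgeR's quasi-likelihood test, that is, had a p below 0.05 after Benjamini-Hochberg adjustment over all tested peaks. Over all 73164 tested peaks 20.5% were called, 10% as higher and 10.4% as lower in old. Low-count peaks were left out of this fit, and all 13490 strong peaks passed that filter.

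Among windows of 1000000 bases, the one on chromosome 7 from 52000001 to 53000000 held the most stable peaks, 33 of 44 strong ones. At the other extreme, among windows with at least 10 strong peaks, a window on chromosome 4 from 42000001 to 43000000 held 1 stable peak among 12. The next lowest share was in a window on chromosome 8 from 126000001 to 127000000, with 9 stable peaks among 51 strong ones. These windows were picked after their values were seen. In the chromosome 4 window the 11 unstable peaks lay between 42023951 and 42781220 and were 1173 to 1597 bases wide. Their sums were 464, 480, 505 and 465 CPM in old libraries, with 296, 406, 314 and 384 CPM in young ones. Every old library was thus above every young one in the sum, as it was at 8 of the 11 peaks singly. By edgeR, 9 of the 11 were called higher in old, where the background is 10%. These peaks were chosen as unstable in an extreme window, so nothing is read from that count. The stable peak of that window, at its far end, had a mean of 74.2 ± 5.74 CPM among old libraries, against 60.7 ± 2.30 CPM among young ones (SD, n = 4 each). This stable peak was also called higher in old, with every old library above every young one.

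Members can differ between the groups within the 1.5-fold limit. Among the 9592 stable peaks, 752 were called higher and 172 lower in old by edgeR, 9.63% in all, where the background over tested peaks is 20.5%. The rule limited this contrast, so nothing is read from the comparison. Among other strong peaks 1183 were higher and 867 lower, or 52.6%. The share of called stable peaks increased with level, from 2.19% at 20 to 25 CPM to 21.8% at 100 CPM or more. Between the same bands the share of strong peaks that the rule kept as stable increased from 47.9% to 96.6%. The rule thus left out fewer strong peaks at high levels, so nothing is read from the increase in called stable peaks. The median log2 fold change, old minus young, was 0.06 in stable peaks and 0.01 over all tested peaks. Stable peaks ran from -0.42 to 0.44. Without old replicate 4, 17.1% of the stable peaks were called, where the background is 30%.

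The 5 stable peaks with the smallest p in that fit all separated the groups, which a choice by p favours. At chr8:87499843-87500778 the old libraries had 91.2, 89.3, 99.1 and 87.7 CPM and the young ones 69.4, 71.7, 70.7 and 71.0 CPM, a log2 fold change of 0.40 ± 0.06 (SE). At chr12:88164754-88166724 the levels were 103 to 112 CPM in old libraries, with 80.9 to 89.1 CPM in young ones. At chr4:101319505-101320887 they were 165 ± 8.38 CPM and 131 ± 8.52 CPM, and at chr11:98442825-98444436 80.9 ± 3.56 CPM and 61.9 ± 3.01 CPM (SD, n = 4 each). The peak at chr10:80140563-80141647 was the only 1 of the 5 that was lower in old, with 118, 125, 118 and 134 CPM against 157, 156, 155 and 159 CPM. All 5 have mean levels above 70 CPM, where counting noise is 3.79% to 5.46%.

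All 4 old libraries lay above all 4 young ones at 828 stable peaks and below them at 389, together 12.7% of stable peaks. The background over tested peaks is 9.75% above and 11.0% below, 20.8% in all. The rule limited this contrast as well, so nothing is read from the comparison. Stable peaks held 44.9%, 44.8%, 44.3% and 44.1% of counts in old replicates 1 to 4 and 43.4%, 43.7%, 43.6% and 42.7% in young replicates 1 to 4. How far this share can differ between libraries is also limited by the rule. Other strong peaks held 12.2 ± 0.108% (old) and 11.9 ± 0.178% (young) of counts (SD, n = 4 each). As a share of the counts in strong peaks alone, stable peaks held 78.5 ± 0.0663% (old) and 78.5 ± 0.385% (young), with the young range around the old one. Young replicate 4 was the lowest library at 2097 stable peaks and old replicate 1 the highest at 1660.

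Each library was also set against peaks chosen without it. Peaks stable in the other 7 libraries numbered 9778 to 10109, and the left-out library fell within the limit at 95.03% to 97.99% of them. The lowest value belonged to young replicate 4 and the highest to young replicate 2. Old replicate 4, which lay between the groups over all peaks, was within the limit at 97.0%. Young replicate 4 fell below the limit at 325 peaks and above it at 177, and old replicate 1 below at 160 and above at 209.

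With the rule applied to young libraries alone, 12640 of the peaks with a young mean of at least 20 CPM were stable, or 93.7%. In the old libraries, which played no part in this choice, 91.7% of these peaks had a ratio within 1.5. Among the strong peaks unstable in young libraries it was 69.8%. As the choice kept 93.7% of strong peaks, the 91.7% lies near the share over all of them. The old to young ratio of means had a median of 1.015, with 0.704 and 1.27 at the 5th and 95th percentiles. Of these peaks 21.2% were called by edgeR (1465 higher and 1215 lower in old), beside the background of 20.5%. Of the 848 strong peaks that were unstable among young libraries 34.1% were called. With old libraries choosing, 12514 peaks were stable, or 92.0% of strong ones. Of these 93.8% had a ratio within 1.5 in young libraries, against 75.1% of the 1095 that were unstable in old libraries. Of the 12514 peaks 20.9% were called (2028 higher and 585 lower in old). The calls also used the libraries that made the choice, so nothing is read from the called shares or their directions. Under the rule over 8 libraries 74.8% of young-stable and 75.7% of old-stable peaks remained.

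Strong peaks missed the limit in different ways. Of the 3898, 2102 (53.9%) were within 1.5 inside each group and exceeded it only between groups. Of these 2102 peaks 64.8% were called by edgeR, where the background is 20.5%, but the class is chosen by a difference between the groups, so nothing is read from that share. Another 656 were within the limit in old libraries only, 916 in young libraries only and 224 in neither group. Leaving out a single library brought 1982 of the 3898 (50.8%) within the limit.

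A few strong peaks were far lower in a single library. In 20 cases a library lay below 0.5 times the lowest of the other 7, and 8 of the 20 were in young replicate 4, 6 in young replicate 1 and 0 in old replicates 1, 2 and 4. At chr5:86209599-86210567 young replicate 4 had 3 counts (0.612 CPM), where the other 7 had 129 to 175 counts and 30.4 to 38.8 CPM, and so were stable among themselves. The weak peaks next to it on either side had 0 counts in young replicate 4, and 1 to 8 and 0 to 8 counts in the other libraries. At chr5:128617104-128617984 young replicate 4 had 0 counts, which allows up to 0.612 CPM (3 counts, for counting error only), against 22.9, 23.0, 27.5 and 21.6 CPM in old and 27.5, 23.8 and 18.0 CPM in the other young libraries. The other 2 cases that were stable in the remaining 7 libraries were in young replicate 1, at chr8:86296552-86297736 (9.32 CPM against 20.1 to 28.6) and chr11:58773307-58774057 (10.2 CPM against 24.0 to 30.6).

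For comparison, the strong peak with the largest log2 fold change, 6.72, at chr7:6680473-6681765, had 46.7, 39.9, 48.4 and 33.1 CPM in old libraries, with 0.444, 0.401, 0 and 0.612 CPM in young ones. The peaks at chr6:76337191-76338130 (45.9 ± 7.54 CPM in old, 7.87 ± 5.15 CPM in young) and chr11:101082261-101083180 (40.5 ± 10.5 and 12.2 ± 6.77 CPM) were also higher in every old library (SD, n = 4 each). These are the unstable peaks with the largest ratios, and 4 of those 5 had at most 7 other peaks within 250000 bases.

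Weaker peaks were also described by the strong peak nearest to them. No difference between the shares below was tested, because peaks are not replicates. Each peak below 20 CPM was assigned to its nearest strong peak. The counts of these weaker peaks set them below 20 CPM and entered the library totals, but the ratio limit was not applied to them. Within 10000 bases of a stable peak 1718 of 10065 tested weaker peaks were called by edgeR (17.1%, with 600 higher and 1118 lower in old). Near another strong peak 923 of 4609 were called (20.03%, 382 and 541), and farther from any strong peak 20.8%, beside the background of 20.5%. Without old replicate 4 the first 2 shares were 26.8% and 29.8%, beside a background of 30%. By level the shares were 14.8% and 15.002% for peaks of 2 to 5 CPM, 17.8% and 21.5% for 5 to 10 CPM, and 20.04% and 27.9% for 10 to 20 CPM. By distance from the strong peak they were 13.1% and 18.9% at less than 1000 bases, 16.9% and 21.8% at 1000 to 3000 bases, and 18.2% and 19.7% at 3000 to 10000 bases, the class with most peaks. Near other strong peaks that were themselves called, 21.8% of weaker peaks were called (535 of 2451), and near those not called 17.98%. The share near stable peaks was not split in this way, so it is not a like comparison.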

How the data were processed

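Bulk ATAC-seq counts of 4 old and 4 young HSC libraries were used, grouped by their titles. The authors deposited raw counts, whole numbers, for a single set of peaks common to the libraries. Per the submitters' processing notes the tools were Bowtie2, MACS2, Picard, SAMtools, FastQC and Trim Galore, and the build was mm9. Of versions, peak merging, the counting program and any shift of read ends, details were not given in the sources used here. Per the labels' protocols libraries followed Omni-ATAC with a Nextera kit. Coordinates are those of the table, in mm9, read as 1-based with both ends included, so the narrowest peak is 200 bases wide.

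CPM used column totals. Gaps count the bases between neighbouring peaks. Neighbours are peaks whose centres lie within 250000 bases. Counting noise is the CV that Poisson counts of the peak's mean would have. All peaks were fitted with edgeR 4.0.16 (glmQLFit, robust, and glmQLFTest; TMM; filterByExpr with minimum count 10 and minimum total 15) in R 4.3.3, the design holding group alone, with Benjamini-Hochberg adjustment over 73164 peaks, which hold 94.2% of counts. Log2 CPM for correlations used a prior count of 2. The fit was tested on simulated counts and the distances against a direct search. The stable peaks and the lists were chosen with earlier results of these data known. Peaks are named by rank in level, ratio, width, gap and p, by nearness to the limits, and by run length. Windows, the comparison of X with autosomes, drop-outs and weaker neighbours were added later.

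Alternatives were TMM or DESeq2 1.42.0 size factors for CPM, other limits, a limit that allows for counting noise, each library left out, and for the fit other scalings, filters, DESeq2's test and a replicate block. Gene, promoter and motif comparisons were planned and not analysed here.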

Additional observations from a re-analysis of the deposited data

Results flagged for a closer look

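Sets of 4 values, 1 per library of a group, were examined for a value lying far from its companions. Of 118 such sets 4 held one, where a rate of 1 in 20 would give 5.9. The sets include the 50 named peaks, many of them picked by their values in these libraries. That rate need not apply to them, so nothing is read from the comparison. Old replicate 4 accounted for 3 of the 4 sets. Its mean correlation with its own group was 0.919, where the other old libraries had 0.941 to 0.944, and its position on the first principal component was -13.7, where they lay at -111 to -96.6. At the stable peak chr4:101319505-101320887 it had 152.8 CPM, below the 169 to 170.2 CPM of the other old libraries and above the young mean of 131 CPM. Old replicate 3 was the lowest of the 8 libraries at 1241 stable peaks, where the other old libraries were lowest at 838 to 903.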

How the results depend on the processing

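Scaling changed little: 9524 peaks were stable with TMM sizes and 9362 with DESeq2 size factors, and 98.1% and 95.4% of the stable peaks remained. A limit allowing for counting noise plus a CV of 0.1 gave 8991 peaks, of which 97.4% were among the stable peaks. Under all 16 settings the median width and the median gap of stable peaks exceeded those of other strong peaks. With a ratio of 1.3 there were 4806 stable peaks (width 1278, gap 4556.5 bases) and with 2 a width of 1183 and a gap of 4019 bases. A mean of at least 50 CPM gave 3011 peaks (1414 and 4894 bases), and at least 10 CPM gave 1144 and 3912 bases. Over libraries left out in turn, stable peaks numbered 9778 to 10109, with widths of 1214 to 1217 and gaps of 4253 to 4301 bases. Stable peaks held 78.5% of the counts in strong peaks and 43.9% of all counts. The edgeR fit called 14986 peaks, 5177 among the 23905 with a mean count of at least 50, 11741 with DESeq2 and 10383 to 22799 with a library left out, highest without old replicate 4. With the replicate block 16758 were called. Correlations of same-numbered deviations were -0.01, 0.07, 0.05 and 0.18, not all above 0.1, so the numbers were not taken to pair the samples, and 2 of 4 old libraries (replicates 2 and 4) correlated best with their own number. Depth limits single ratios: at 20 CPM to 25 CPM median counting noise was 9.74% in stable peaks, so stability near that level is uncertain. X and autosomal shares with TMM sizes were 81.4% and 70.4%, and with a ratio of 2 they were 96.0% and 93.0%.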
